A study of Mus musculus with 4 samples.

Results

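The nuclear-encoded genes of oxidative phosphorylation were followed in CSF1R-EGFP+ cells sorted from mouse hearts. They were chosen by name alone: symbols beginning with Ndufa, Ndufb, Ndufc, Ndufs, Ndufv, Uqcr, Cox4i, Cox5, Cox6, Cox7, Cox8 or Atp5, together with Sdha, Sdhb, Sdhc, Sdhd, Cyc1 and Cycs. Of the 31053 genes listed, 95 met this rule, and 92 had at least 1 unique molecular identifier (UMI, a tag that counts each captured transcript once). Cox7b2, Cox8c and a second entry named Atp5o had no UMI in any library. The 92 genes comprised 7 core subunits, 29 accessory subunits and 8 assembly factors of complex I, 4 genes of complex II, 9 of complex III, cytochrome c (Cycs), 18 of complex IV and 16 of ATP synthase.

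The mice were 12 to 16 weeks old and all carried the same transgene, in which the Csf1r promoter drives EGFP in monocytes, macrophages and related cells. Ly6G-negative, EGFP-positive cells were sorted from hearts without surgery (baseline, 1 library made from 3 pooled hearts) and from infarcts 7 days after ligation of the left coronary artery (3 libraries, 1 heart each, after the non-infarcted remote part had been cut away). Since the baseline is a single library, infarct and baseline were compared by their values without a test. Cell types within the infarcts were tested over the 3 hearts.

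The respiratory chain sits in the inner mitochondrial membrane. Complexes I and II feed electrons from NADH and succinate into ubiquinone, complex III passes them to cytochrome c, complex IV delivers them to oxygen, and ATP synthase uses the proton gradient built on the way to make ATP. A few hydrophobic core subunits are encoded in mitochondrial DNA, while all others, and every subunit of complex II, are made from nuclear genes and imported. Alternatively activated and tissue-resident macrophages are known for reliance on this machinery, whereas strongly inflammatory macrophages favour glycolysis.

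Many of these genes have compact promoters read by a small set of shared factors. Of the 92 genes, 74 matched 79 promoter windows of RefSeq on GRCm38.p6, each running from 250 bases before to 50 bases after the annotated start. GCGCATGC, the letters bound by NRF1, or its reverse complement stood in 13 of these windows (16.5%) against 2.71% of all 32851 windows. CCGGAAG, an ETS family motif, stood in 22.8% against 8.86%, AAGATGGCG, a YY1 motif, in 10.1% against 1.40%, and TGACGTCA, the cyclic AMP response element, in 6.33% against 1.79%. TCAAGGTCA, read by oestrogen-related receptors, stood in 2.53% against 0.423%. Both strands were searched, and no member window held ETS and YY1 motifs that shared their letters AAG. At least 1 of these 5 motifs was present in 36 windows (45.6%) against 13.9% of all windows, whereas TATAAA stood in 8.86% against 13.6%. The median GC content was 57.2% in the member windows and 52.4% in all windows.

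The upstream 250 bases of 4 genes with contrasting behaviour in these cells are given below in the direction of transcription, with the motifs found in capitals. They were chosen because Cycs differed between the most cell types, Sdhb was higher in infarct in every type compared, Cox5a was among the members that differed most from baseline, and Cox7a2l went in opposite directions in different cells. The Cycs window (chr6:50566570-50566819, minus strand) held the cyclic AMP response element 169 bases and an NRF1 motif 60 bases before the start. The Sdhb window (chr4:140961021-140961270, plus strand) held an NRF1 motif 54 bases before the start. Neither the Cox5a window (chr9:57520982-57521231, plus strand) nor the Cox7a2l window (chr17:83514334-83514583, minus strand) held any of the 5, which says only that these letters were not found there. The RefSeq start of Cox7a2l lies inside the GENCODE gene, downstream of that gene's outermost start.
Cycs: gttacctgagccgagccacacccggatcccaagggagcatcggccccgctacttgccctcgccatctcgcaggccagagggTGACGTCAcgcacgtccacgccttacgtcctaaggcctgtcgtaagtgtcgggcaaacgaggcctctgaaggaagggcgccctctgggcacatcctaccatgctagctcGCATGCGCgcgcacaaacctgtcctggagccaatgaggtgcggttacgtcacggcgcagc
Sdhb: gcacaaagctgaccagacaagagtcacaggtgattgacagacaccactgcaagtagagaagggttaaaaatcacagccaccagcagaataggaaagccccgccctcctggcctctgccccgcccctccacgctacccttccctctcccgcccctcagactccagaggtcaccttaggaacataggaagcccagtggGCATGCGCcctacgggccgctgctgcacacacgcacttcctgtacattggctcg
Cox5a: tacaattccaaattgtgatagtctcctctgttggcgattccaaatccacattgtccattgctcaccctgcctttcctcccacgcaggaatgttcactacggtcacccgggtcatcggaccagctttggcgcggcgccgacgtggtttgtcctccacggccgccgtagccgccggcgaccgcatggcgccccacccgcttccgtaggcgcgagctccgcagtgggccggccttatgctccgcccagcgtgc
Cox7a2l: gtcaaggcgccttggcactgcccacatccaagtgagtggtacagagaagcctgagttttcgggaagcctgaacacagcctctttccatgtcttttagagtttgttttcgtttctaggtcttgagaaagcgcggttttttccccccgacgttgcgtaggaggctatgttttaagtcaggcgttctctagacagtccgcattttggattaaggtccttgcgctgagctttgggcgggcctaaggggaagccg

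After removal of cells outside 500 to 40000 UMIs, the libraries held 10117 to 10782 cells and 70982109 to 97301304 UMIs. The median cell had 6399 UMIs at baseline and 8470 to 8557 in the infarct libraries. The libraries shared 26 to 34 cell barcodes in pairs, at most 0.332% of a library. The macrophage genes C1qa, C1qb and C1qc summed to 9751 CPM (a UMI count scaled to a common library total) at baseline and 11287 to 15114 CPM in infarct, and granulocyte markers to 196 to 248 CPM. Cell types were set by marker genes, none of them a member. Most infarct cells were macrophages, but the types differed in abundance: macrophages with Lyve1, Folr2 or other resident markers made up 2380 baseline cells and 36 to 76 cells per infarct, and reparative macrophages with Gpnmb, Spp1 and Fabp5 made up 56 baseline cells and 1586 to 2081 per infarct.

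Transcripts of the respiratory chain took a larger share of the RNA in infarct cells. The 92 genes summed to 14368 CPM at baseline and to 18889, 19354 and 18341 CPM in the 3 infarct libraries (18861 ± 507, SD, n = 3), a ratio of 1.31. All infarct libraries lay above baseline, and the gap was several times their spread. Cell by cell, the median share was 1.31% at baseline and 1.69% to 1.78% in infarct. Here and below, CPM are relative to the UMIs of genes other than the mitochondrially encoded ones.

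The same direction was found within most cell types. In MHC-II-high macrophages, marked by H2-Aa and Cd74, the sum was 12523 CPM at baseline and 17633, 17457 and 16674 in infarct. In classical monocytes, marked by Ly6c2 and Plac8, it was 17465 and 22958, 22637 and 22022 CPM, and in non-classical monocytes, marked by Ace and Treml4, it was 13208 and 17283, 17125 and 17918 CPM. Macrophages that met none of the special gates (other macrophages) gave 14302 and 17569, 17937 and 17082 CPM. In each of these types the infarct libraries stood together, above baseline.

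Type 2 dendritic cells, marked by Cd209a and Flt3, had 16628 CPM at baseline and 21469, 21588 and 20275 CPM in infarct. Cycling cells, marked by Mki67 and Top2a, had 16711 CPM and 21948, 24436 and 22979 CPM. The few resident macrophages of the infarcts had 18664, 17973 and 20728 CPM against 14156 CPM at baseline. Reparative macrophages did not follow this pattern: they had 18569 CPM at baseline, from 56 cells, and 19230, 19128 and 18553 CPM in infarct, so that the libraries overlapped. Cells positive for Gpnmb but low in C1q had 20859 CPM at baseline, from 87 cells, and 21101, 25065 and 21004 CPM in infarct. The largest distance was in granulocytes, at 7951 CPM in 65 baseline cells and 25158, 20598 and 21364 CPM in 50 to 88 cells per infarct, and this type was shallow, with a median of 2085 UMIs at baseline and 2628 in infarct.

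**Figure D1:**
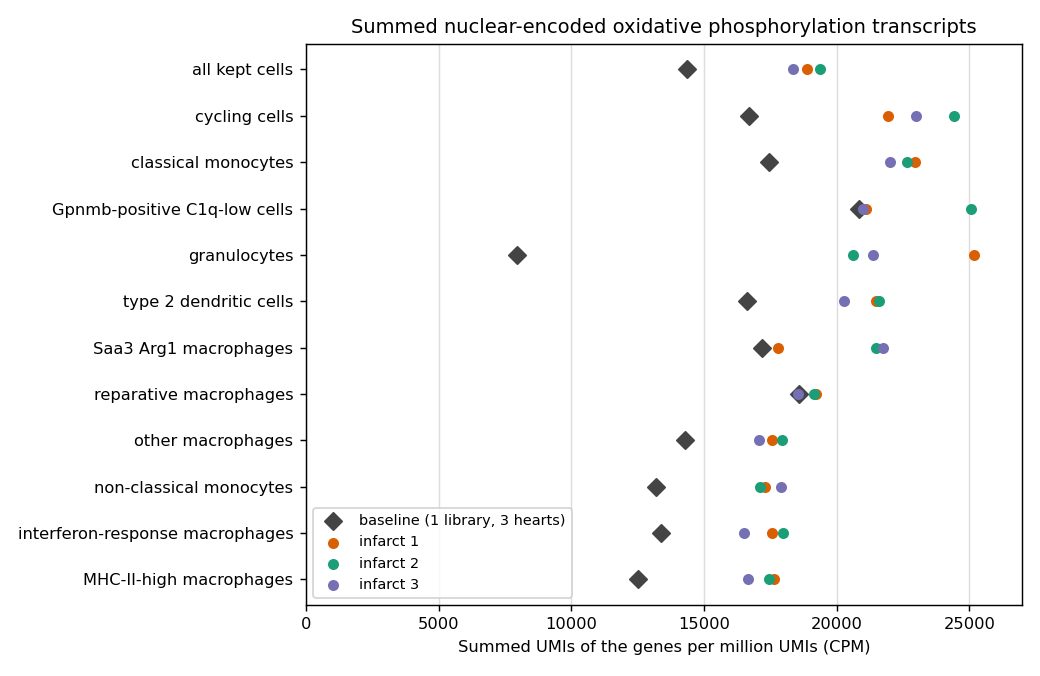
Summed UMIs of the 92 oxidative phosphorylation genes as CPM (x axis) in all kept cells and in each gated type (rows), with a diamond for the baseline library and a point for each infarct library. Infarct libraries lie right of baseline in most rows, but 1 of 3 lies left of it in reparative macrophages, where the values are 18569 CPM at baseline and 18553 to 19230 CPM in infarct.

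The shift was spread over the complexes. A gene was counted as higher when its mean over the 3 hearts was at least 25% above baseline, and as lower when baseline was at least 25% above that mean, provided that all 3 hearts lay on the same side. Genes whose levels averaged under 10 CPM were set aside. Of the 92 genes, 82 reached 10 CPM. Of these, 57 were higher and 2 were lower, against 15.8% higher and 39.0% lower among all 7708 genes of that level. The median log2 ratio was 0.37 for the members and -0.17 for all genes. When TMM library sizes replaced total UMIs, the median of all genes moved to 0.11, and 76 members were higher and 1 lower, against 34.1% and 19.2% of all genes.

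By complex, 22 of 29 accessory subunits of complex I were higher, 12 of 15 ATP synthase genes, 9 of 12 complex IV genes, 5 of 9 complex III genes, 4 of 7 complex I core subunits and 2 of 4 complex II genes. Only Ndufs1, a core subunit, and Ndufaf7, an assembly factor, were lower. The summed levels of the complexes moved by similar amounts, with infarct to baseline ratios of 1.35 for complex IV, 1.32 for complex I accessory subunits, 1.30 for ATP synthase, 1.29 for complex III, 1.22 for complex I core subunits and 1.21 for complex II. The 8 assembly factors of complex I, which build the complex but are not part of it, summed to 148 CPM at baseline and to 164, 172 and 168 CPM in infarct, a ratio of 1.13.

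**Figure D2:**
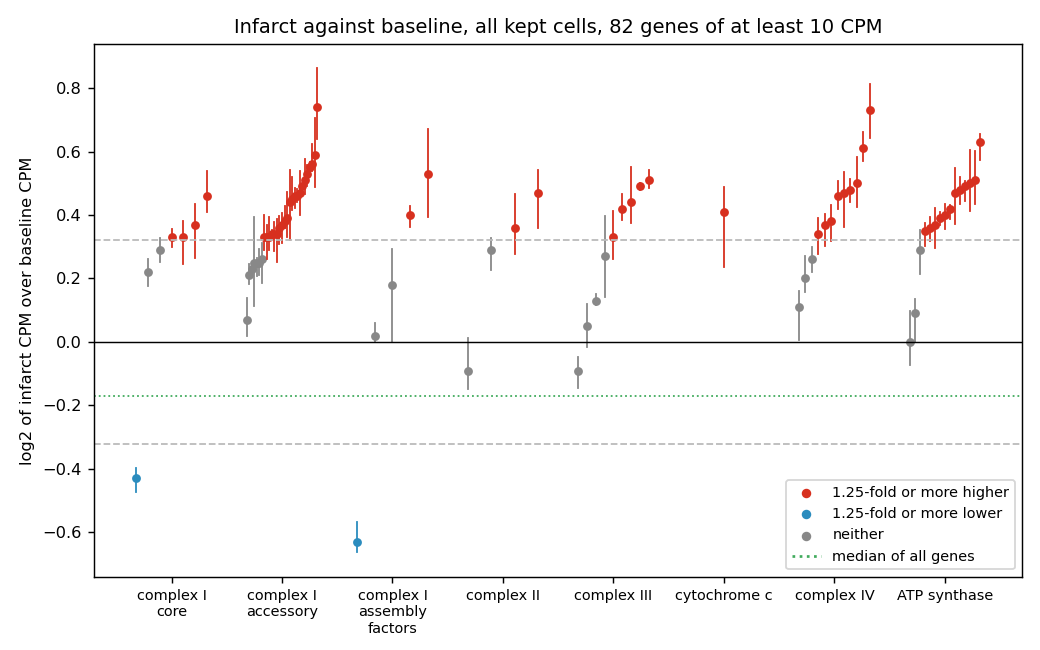
log2 of the mean infarct CPM over the baseline CPM (y axis) for the 82 genes of at least 10 CPM, grouped by complex, with points for genes and lines from the lowest to the highest infarct library. Dashed lines mark a 25% difference and the dotted line the median of all genes, -0.17. The 57 higher genes occur in every complex, and the 2 lower genes are Ndufs1 (-0.43) and Ndufaf7 (-0.63).

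Ndufc2, an accessory subunit in the membrane arm of complex I, showed the largest ratio among these genes. It had 165 CPM at baseline (exact 95% Poisson interval 162 to 168, counting error only) and 257, 300 and 270 CPM in infarct (276 ± 22.3, SD, n = 3), a log2 ratio of 0.74. Every infarct library lay above the baseline interval. Ndufc2 lies at chr7:97400003-97407802 on the plus strand of GRCm38, and Gm16053 overlaps it on that strand, so reads could be divided between them. Cox5a, a subunit that joins the catalytic core of complex IV early in its assembly, had 248 CPM at baseline (244 to 252) and 436, 413 and 387 CPM in infarct, a log2 ratio of 0.73. In MHC-II-high macrophages the Cox5a distance was larger, with 169 CPM at baseline and 385, 342 and 330 CPM in infarct, a log2 ratio of 1.06.

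Atp5g2, which encodes the c subunit of the rotating ring of ATP synthase, had 362 CPM at baseline and 539, 570 and 565 CPM in infarct. Its paralogs, which encode the same mature protein, were also higher, Atp5g1 with 214 CPM against 300, 313 and 277, and Atp5g3 with 131 CPM against 199, 182 and 177. Cox8a, a small subunit of complex IV, had 504 CPM against 760, 797 and 748 CPM, and Ndufa12, an accessory subunit of complex I, 70.5 CPM against 104, 115 and 99.0 CPM. For all 5 genes the lowest infarct library lay above baseline. Cox4i1, the regulatory subunit that pairs with Cox5a, had 802 CPM against 1145, 1133 and 1089 CPM, and a same-strand neighbour, Gm20388, overlaps it.

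Within complex II the 4 subunits did not move alike. Sdhb, the iron-sulfur subunit, had 110 CPM at baseline and 141, 160 and 159 CPM in infarct, a log2 ratio of 0.47, and Sdhd, a membrane anchor, 81.0 CPM against 103, 112 and 98.1 CPM. Sdha, the flavoprotein that oxidises succinate, had 97.2 CPM against 98.0, 88.4 and 87.7 CPM, with infarct libraries on both sides of baseline. Within complex III, the hinge protein gene Uqcrh had 425 CPM at baseline and 592, 602 and 596 CPM in infarct, whereas the large structural core proteins were near baseline. Uqcrc1 had 87.3 CPM against 81.9, 84.5 and 79.0 CPM, and the Rieske iron-sulfur protein gene Uqcrfs1 had 108 CPM against 120, 117 and 119 CPM. Cyc1, the haem protein that donates electrons to cytochrome c, had 69.9 CPM against a mean of 84.4 ± 7.44 CPM (SD, n = 3), short of the 25% limit.

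On total UMIs, the catalytic subunits of ATP synthase were likewise near baseline. With TMM library sizes 76 members were higher, so this nearness, here and in complexes II and III, holds for the CPM values given. Atp5b, the beta subunit that makes ATP, had 312 CPM at baseline and 337, 343 and 312 CPM in infarct, and Atp5a1, the alpha subunit, had 287 CPM against 307, 273 and 281 CPM. The infarct values of Atp5a1 fell on both sides of baseline. In the catalytic arm of complex I, Ndufv1, which binds NADH, had 38.8 CPM against 45.3, 46.5 and 43.8 CPM, above baseline in all 3 hearts but short of the 25% limit.

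Ndufs1, the largest core subunit, which carries iron-sulfur clusters, went the other way. The gene lies at chr1:63143596-63176833 on the minus strand, and it had 40.8 CPM at baseline (39.3 to 42.4) and 30.7, 29.4 and 31.0 CPM in infarct, a log2 ratio of -0.43. With TMM library sizes the ratio was -0.15, still below baseline but short of that limit. The gene was lower by the rule in 5 of the 6 types compared gene by gene, with the largest distance in other macrophages (45.8 CPM against 29.7, 27.7 and 30.5 CPM), and it was neither higher nor lower in cycling cells. Ndufaf7, a methyltransferase needed for assembly, had 22.8 CPM at baseline and 14.4, 14.5 and 15.4 CPM in infarct. Among the other assembly factors Ndufaf3 (21.3 CPM against 30.6, 33.9 and 28.0) and Ndufaf8 (47.4 CPM against 60.9, 63.1 and 63.8) were higher, Ndufaf2 and Ndufaf4 were neither, and Ndufaf1, Ndufaf5 and Ndufaf6 were under 10 CPM.

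Transcript length moved with these ratios. Genes of oxidative phosphorylation are mostly short, and among other genes too the short ones were more often higher in infarct than the long ones. Among members with principal transcripts under 700 bases, 23 of 28 (82.1%) were higher, against 52.6% of 135 other genes of that length and level. From 700 to 1000 bases the shares were 76.5% and 51.3%, from 1000 to 2000 bases 63.0% and 24.5%, and over 2000 bases 40.0% and 8.48%. Members had the larger share in each class over all kept cells, and the medians were 0.40 and 0.34 in the shortest class and 0.26 and -0.33 in the longest. Across genes, the log2 ratio and log2 length had Pearson r = -0.36 and Spearman rho = -0.28 over the 82 members and -0.38 and -0.51 over 7474 other genes, where all points share the same 4 libraries. The longest members were split, since Ndufs1 (2661 bases) was lower but Cycs (3123 bases) and Atp5g1 were higher.

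**Figure D3:**
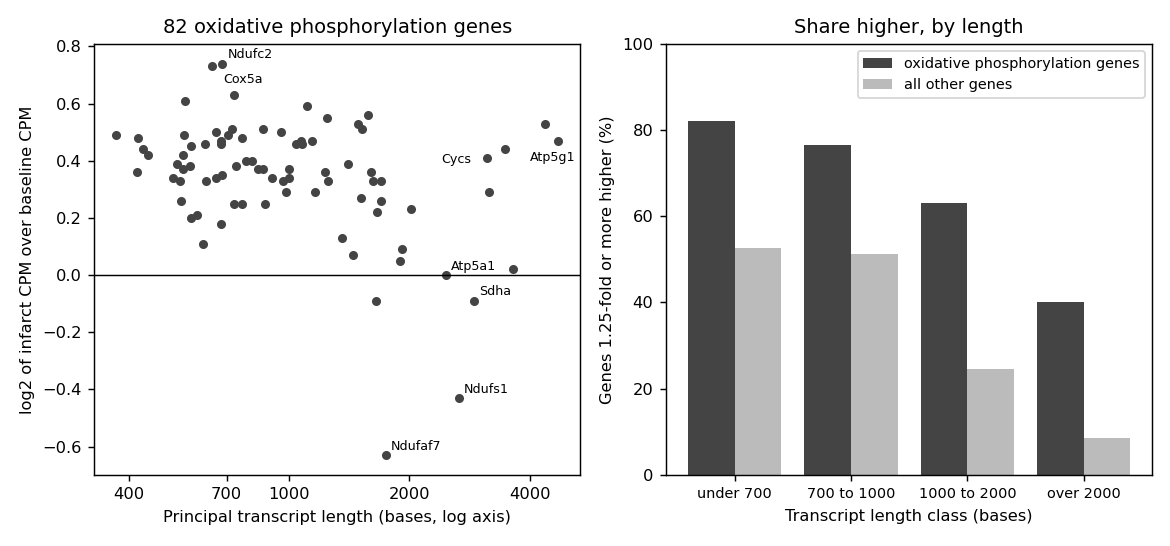
Left, log2 of infarct over baseline CPM (y axis) against the length of the principal transcript in bases (x axis, log scale) for 82 genes. Right, percent of genes at least 25% higher in infarct, by length class, in dark bars for oxidative phosphorylation genes and light bars for all other genes. The dark bars fall from 82.1% in the shortest class to 40.0% in the longest, and the light bars from 52.6% to 8.48%.

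In other macrophages the shares were closer or reversed, at 42.9% of members and 41.3% of other genes under 700 bases, 29.4% and 39.0% from 700 to 1000 bases, 42.9% and 22.1% from 1000 to 2000 bases, and 0 of 10 members and 7.97% over 2000 bases. The part of transcript length in the difference of the members was not tested. In all kept cells, cytosolic ribosomal protein genes took 12.4% of UMIs at baseline and 16.0%, 16.5% and 16.2% in infarct. Of 81 such genes at 10 CPM or more, 57 were higher and 0 lower by the same rule. When these genes were left out of the total, the members had a log2 ratio of 0.46 in place of 0.39 for the sum. Cardiomyocyte markers summed to 90.9 CPM at baseline and 35.7, 51.5 and 68.5 CPM in infarct, with none of the 11 markers at 0. In classical monocytes they were at 12.5 CPM at baseline and 1.93 to 2.90 CPM in infarct. Their part in the difference of the members was not tested.

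The subunits made inside the mitochondrion went the opposite way from their nuclear partners. The 13 mitochondrially encoded genes took 4.75% of all UMIs at baseline and 3.73%, 3.54% and 3.07% in infarct. Of these, 11 (84.6%) were lower and 0 higher in all cells, where 39.0% of all genes were lower, with a median log2 ratio of -0.79 against 0.37 for the nuclear members. In MHC-II-high macrophages 13 of 13 were lower, against 41.6% of all genes. In classical monocytes 4 of 13 (30.8%) were lower, no more than the 34.5% of all genes, and their share of UMIs was 2.96% at baseline and 2.99%, 2.88% and 2.42% in infarct.

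Other mitochondrial gene groups were set against the same shares of all genes, 15.8% higher and 39.0% lower, with a median of -0.17. Of 74 mitochondrial ribosomal protein genes, 35 were higher (47.3%) and 1 lower, with a median log2 ratio of 0.30. Of 23 further assembly factors 9 were higher (39.1%) and 3 lower, and of 12 carriers and porins 5 were higher (41.7%) and 1 lower. Enzymes of the tricarboxylic acid cycle had 0 higher and 4 lower (26.7%) of 15 and a median of -0.11, and regulators of mitochondrial biogenesis had 0 higher and 3 lower (37.5%) of 8 and a median of -0.26. The lower shares of these last groups did not exceed that of all genes.

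By cell type, 6 types had at least 100 baseline cells and enough cells in the infarcts. In each, the share of members that were higher stood above that of all genes. Those genes are of all lengths. Against genes of like length, the shares in other macrophages were closer or reversed in most classes. In type 2 dendritic cells 64.7% of members and 55.2% of other genes were higher from 700 to 1000 bases. From 1000 to 2000 bases these shares were 46.4% and 38.9%. They lay farther apart under 700 bases (72.4% and 49.2%) and over 2000 bases (40.0% and 14.1%). In MHC-II-high macrophages 58 of 82 members were higher and 2 lower, where 16.7% of all genes were higher and 41.6% lower. In classical monocytes the counts were 56 and 4 of 83 (background 18.4% and 34.5%), and in non-classical monocytes 57 and 1 of 81 (15.2% and 20.9%). Cycling cells had 66 and 2 of 83 (21.1% and 34.9%) and type 2 dendritic cells 49 and 4 of 84 (22.3% and 31.3%). The lowest count was in other macrophages, with 29 and 3 of 83 (14.1% and 41.9%), and there TMM library sizes gave 67 higher and 1 lower. All of these counts were made against the same baseline library.

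Of the members, 15 were higher in all 6 types and 38 in at least 5. The share of all genes that did so was not counted, and the types share 1 baseline library. The 15 were the complex I genes Ndufa2, Ndufa3, Ndufa8, Ndufa12, Ndufa13, Ndufc1, Ndufc2, Ndufv3 and Ndufaf3, Sdhb of complex II, Cox5a and Cox6b1 of complex IV, and Atp5h, Atp5j2 and Atp5k of ATP synthase. In at least 1 type 7 members were lower, among them Ndufs1, Ndufaf7 and the isoform gene Cox6b2, likewise without a count over all genes. A few distances were particular in size to a type. In cycling cells Ndufs3, a core subunit of complex I, had 52.5 CPM against 85.3, 108 and 95.4 CPM. In type 2 dendritic cells Ndufaf3 had 20.7 CPM (exact interval 13.7 to 29.9) against 51.4, 40.2 and 39.3 CPM. In classical monocytes Ndufv3 had 89.6 CPM against 204, 144 and 138 CPM, and Ndufaf7 42.3 CPM against 16.2, 21.2 and 29.0 CPM.

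Cox7a2l, counted here with complex IV, differed in direction. In other macrophages it had 287 CPM at baseline and 510, 519 and 542 CPM in infarct, a log2 ratio of 0.87, and in MHC-II-high macrophages 331 CPM against 480, 523 and 536 CPM. In classical monocytes it had 484 CPM at baseline and 312, 402 and 446 CPM in infarct, a log2 ratio of -0.32. With TMM library sizes this ratio was -0.15, short of the 25% limit. All infarct libraries lay above baseline in the macrophages and below it in the classical monocytes, so that monocytes had the higher level at baseline and macrophages in infarct. The difference between the types was not tested, as the baseline is a single library.

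Within the infarcts, where each type could be set against all other cells of the same 3 hearts, classical monocytes had the most members called higher and macrophages without a special marker the most called lower. The test was the edgeR quasi-likelihood test with the heart as a block, called at an adjusted p below 0.01 over all genes tested. Fitted log2 differences are on TMM-scaled libraries and therefore differ somewhat from the ratio of the CPM values, and members with near-equal CPM can carry a small fitted difference. All 92 genes were tested in each of 11 types. Of the 1012 pairs of gene and type, 193 were called higher and 112 lower. Among all genes, the share called higher ran from 4.52% in granulocytes to 14.9% in cycling cells. The share called lower ran from 4.63% in interferon-response macrophages to 17.1% in type 2 dendritic cells. These totals over types were not read against a pooled share. The number of calls depended on the pairing of sums within a heart: without the replicate block, other macrophages had 5 calls, reparative macrophages 1, and MHC-II-high and interferon-response macrophages 0 (22 and 6 members at an unadjusted p under 0.05), whereas DESeq2 with the block gave 40, 14, 25 and 2. With cells thinned to 2000 UMIs the calls fell most in Gpnmb-positive C1q-low cells, to 9, and in cycling cells, to 16.

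In classical monocytes 50 members were higher than in the other cells and 2 were lower (background 14.0% and 15.5% of all genes), with a median log2 of 0.31 against -0.08 for all genes. The 50 included 18 of 29 accessory subunits of complex I, 11 of 16 ATP synthase genes, 11 of 18 complex IV genes, and 0 of 4 complex II genes. Without infarct 2 the total was 28 and without infarct 3 it was 34. In other macrophages 2 members were higher and 46 lower (background 10.8% and 15.5%), 14 of them ATP synthase genes and 16 accessory subunits of complex I. Their median log2 was only -0.17, and the total was 27 without infarct 2 and 14 without infarct 3.

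Cycling cells had 40 members higher and 3 lower (14.9% and 11.2%), with 11 of 16 ATP synthase genes higher, and 24 calls in all without infarct 2. Cells positive for Gpnmb but low in C1q had 36 higher and 1 lower (6.71% and 7.28%), with 16 accessory subunits of complex I and 7 ATP synthase genes among the 36. Only 3 calls were made without infarct 3. Among the calls lost, Ndufc1, Ndufb6 and Ndufa12 kept fitted log2 differences of 0.66, 0.54 and 0.53 (edgeR adjusted p = 0.0148, 0.0154 and 0.0161). Why the count fell was not tested. Type 2 dendritic cells had 33 higher and 1 lower (14.2% and 17.1%), with 18 calls in all without infarct 1. Mitochondrially encoded genes went the opposite way in dendritic cells, where 13 of 13 fell below the other cells, and in classical monocytes, where 8 of 13 did. They were also lower in granulocytes (11 of 13) and non-classical monocytes (7 of 13), where only 1 and 3 nuclear members were called higher.

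Reparative macrophages had 16 higher and 2 lower (11.4% and 14.0%), 9 of the 16 being accessory subunits of complex I, and 2 calls were made without infarct 3 and 9 without infarct 2. Against macrophages alone the total was 66 in reparative and 14 in MHC-II-high macrophages. These totals join higher and lower calls and have no share of all genes beside them, so they were not read against a background. MHC-II-high macrophages had 5 higher and 22 lower (9.89% and 12.3%), and 13 calls without infarct 3. Non-classical monocytes had 3 higher and 28 lower (9.95% and 11.7%), but the median over all genes tested there, -0.25, was as low as that of the members, -0.20. Without infarct 2 they gave 13 calls and without infarct 3 they gave 16.

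Few members were called in the remaining types. Macrophages with interferon-response genes such as Ifit1 and Cxcl10 had 3 higher and 0 lower (8.07% and 4.63%), and 2 when any heart was left out. Macrophages marked by Saa3 and Arg1 had 4 higher and 5 lower (11.2% and 9.56%), with 4 calls in all without infarct 3. Granulocytes had 1 higher and 2 lower (4.52% and 8.31%), with 7 calls without infarct 1 and 1 without either other heart. Their median log2 was 0.09 for the members and -0.30 for all genes tested. With 50 to 88 shallow cells per heart, the few calls do not show that the members were alike there. Sdha, Ndufs1, Ndufs7, Cox7c, Ndufb4, Cox4i2, Cox8b, Ndufaf1, Ndufaf5 and Ndufaf6 passed the test in none of the 11 types.

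**Figure D4:**
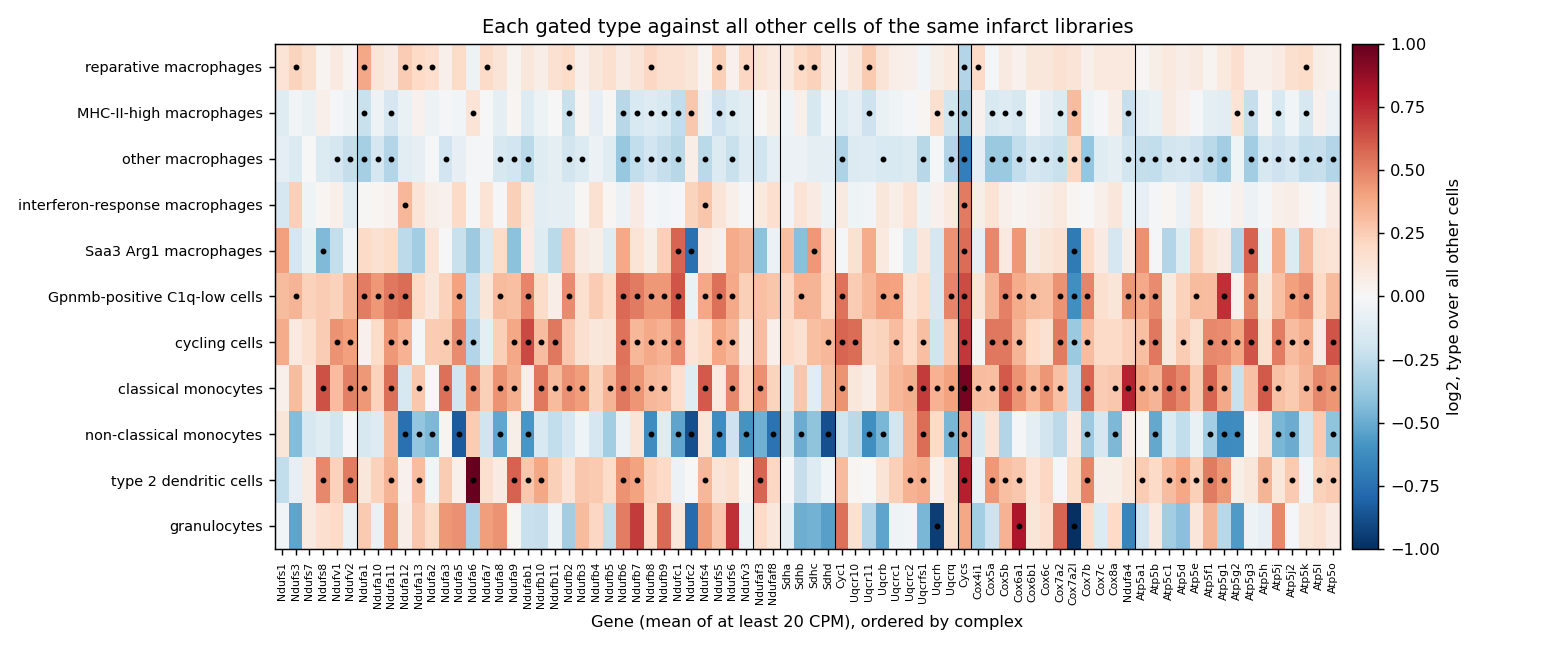
Fitted log2 difference between each gated type (rows) and all other cells of the same 3 infarct libraries for genes of at least 20 CPM other than 1 left out (columns, ordered by complex), in red for higher and blue for lower with the scale ending at 1 and -1, and a dot where the edgeR adjusted p was below 0.01. Classical monocytes carry 50 higher calls and other macrophages 46 lower calls over all 92 genes, and the column of Cycs is marked in 10 of 11 rows.

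Cycs, the soluble carrier between complexes III and IV that also triggers the apoptosome when released, differed between more types than any other member: it was called in 10 of 11 types. The gene spans chr6:50562563-50566538 on the minus strand. In classical monocytes it had 212, 199 and 179 CPM in the 3 hearts, against 110, 113 and 95.5 CPM in all other cells, and every heart showed the higher value. The fitted log2 difference was 0.96 ± 0.07 (SE, n = 3 hearts, edgeR adjusted p = 1.21e-05). In type 2 dendritic cells it had 200, 202 and 142 CPM against 114, 115 and 97.4 CPM (log2 0.78 ± 0.08, adjusted p = 1.34e-06). Cycling cells had 167, 210 and 171 CPM, interferon-response macrophages 145, 155 and 117 CPM, and non-classical monocytes 152, 174 and 150 CPM, all called higher. The call in non-classical monocytes was lost without infarct 2 (adjusted p = 0.0338) and without infarct 3 (adjusted p = 0.136). Cycs was also called higher in Saa3 Arg1 macrophages (133, 198 and 171 CPM), a call lost without infarct 3 (adjusted p = 0.0532), and in Gpnmb-positive C1q-low cells (160, 214 and 139 CPM).

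At the low end of Cycs were the 3 largest macrophage types. Other macrophages had 79.0, 80.3 and 70.9 CPM against 125, 131 and 109 CPM in all other cells, a log2 difference of -0.68 ± 0.03 (edgeR adjusted p = 2.59e-05). MHC-II-high macrophages had 91.5, 85.1 and 73.8 CPM (log2 -0.36 ± 0.03, adjusted p = 6.11e-05) and reparative macrophages 91.7, 91.3 and 83.5 CPM (log2 -0.29 ± 0.05, adjusted p = 0.00155, and 0.0147 without infarct 2). The low and high types did not overlap in any heart. Against macrophages alone instead of all other cells, the difference turned to 0.11 in reparative macrophages (adjusted p = 0.0354) and to 0.01 in MHC-II-high macrophages (adjusted p = 0.798), and was -0.33 in other macrophages. Granulocytes ranged widely, at 255, 131 and 128 CPM, and were not called (log2 0.39 ± 0.24, adjusted p = 0.306).

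The order of Cycs in infarct did not repeat the infarct to baseline ratio. In cycling cells Cycs had 103 CPM at baseline and in classical monocytes 144 CPM, and both were higher in infarct. In other macrophages it had 78.0 CPM at baseline and 79.0, 80.3 and 70.9 CPM in infarct, and the libraries overlapped. Reparative macrophages had 111 CPM in 56 baseline cells (exact interval 89.3 to 136) and 91.7, 91.3 and 83.5 CPM in infarct, of which the first 2 fell inside that interval.

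**Figure D5:**
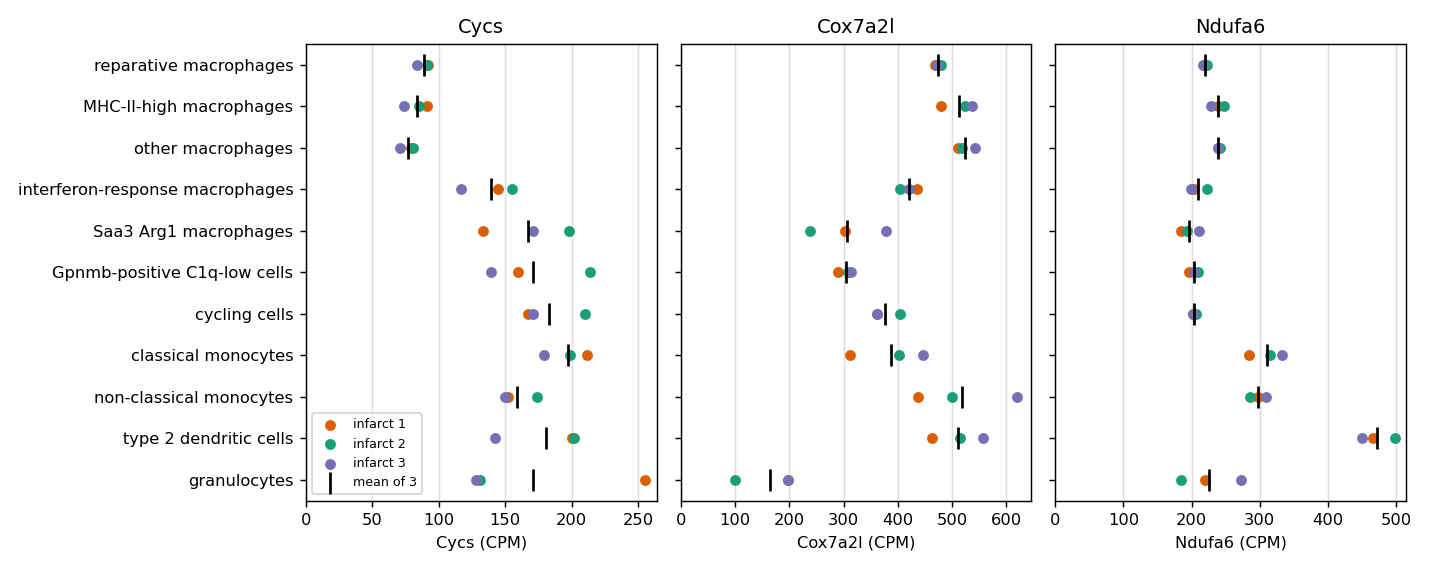
CPM (x axes) of Cycs, Cox7a2l and Ndufa6 in each gated type (rows), with a point for each infarct library and a bar for the mean of the 3. Cycs is lowest in the 3 large macrophage types (70.9 to 91.7 CPM), Cox7a2l is lowest in granulocytes (100 to 198 CPM), and Ndufa6 is highest in type 2 dendritic cells (450 to 499 CPM).

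Ndufa6, an accessory subunit at the matrix arm of complex I, was highest in type 2 dendritic cells. The gene spans chr15:82350140-82354322 on the minus strand. It had 466, 499 and 450 CPM there against 229, 239 and 230 CPM in all other cells, with no overlap, a log2 difference of 1.06 ± 0.07 (edgeR adjusted p = 2.17e-09). It was also higher in classical monocytes (310 ± 24.6 CPM, SD, n = 3) and lower in cycling cells (203 ± 2.80 CPM), where the call was lost without infarct 2 (adjusted p = 0.0482). In MHC-II-high macrophages a fitted difference of 0.14 was called at equal mean CPM, 238 against 238, and was lost without infarct 1 (adjusted p = 0.0162) or infarct 3 (adjusted p = 0.0102). In all kept cells it was not among the genes that differed from baseline by 25%, with 206 CPM against 236, 244 and 234 CPM. Ndufaf7 was high in the same dendritic cells, with 28.3, 28.0 and 27.8 CPM against 13.9, 14.2 and 15.2 CPM (log2 1.01 ± 0.14, adjusted p = 2.14e-05).

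Cox7a2l, at chr17:83501918-83517330 on the minus strand, ran against the other members in several types. It was the only member called lower in the Gpnmb-positive C1q-low cells, with 289, 309 and 313 CPM against 435, 482 and 490 CPM in all other cells (log2 -0.61 ± 0.07, edgeR adjusted p = 6.52e-05). It was lower in granulocytes, with 198, 100 and 197 CPM against 432, 478 and 487 CPM (log2 -1.71 ± 0.26, adjusted p = 1.09e-09), and also in Saa3 Arg1 macrophages and cycling cells. In MHC-II-high macrophages, where most called members were lower, it was higher, with 480, 523 and 536 CPM against 417, 465 and 472 CPM (log2 0.32 ± 0.02, adjusted p = 1.27e-05). In each of these types the 3 hearts had the same direction.

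Ndufc2 shared some of this distribution. It was lower in Saa3 Arg1 macrophages, with 162, 184 and 181 CPM against 269, 303 and 277 CPM (log2 -0.75 ± 0.10, edgeR adjusted p = 0.000667), and lower in non-classical monocytes, with 188, 142 and 152 CPM against 257, 301 and 271 CPM (log2 -0.88 ± 0.13, adjusted p = 4.31e-11). In MHC-II-high macrophages it was higher by 0.27 ± 0.03 on the log2 scale. Sdhd was lower in non-classical monocytes, at 64.8, 57.1 and 58.2 CPM against 103, 112 and 98.4 CPM, while Uqcrfs1 was higher there, at 181, 156 and 211 CPM against 119, 117 and 118 CPM, a call lost without infarct 3 (adjusted p = 0.107). These values rest on 72 to 109 cells per heart.

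Other members had their largest differences in these types. Atp5g1 was higher in Gpnmb-positive C1q-low cells, with 445, 567 and 431 CPM against 296, 306 and 273 CPM (log2 0.73 ± 0.08, edgeR adjusted p = 3.24e-05). Ndufa4, now counted as a subunit of complex IV, was higher in classical monocytes, with 477, 460 and 438 CPM against 287, 294 and 264 CPM (log2 0.77 ± 0.06, adjusted p = 2.47e-05). In cycling cells Ndufaf2, an assembly factor, had 28.3, 38.3 and 35.0 CPM against 16.6, 19.0 and 20.0 CPM, and Atp5o, the stalk subunit that confers oligomycin sensitivity, 316, 364 and 338 CPM against 216, 218 and 199 CPM. For each of these genes all 3 hearts lay above the other cells. In reparative macrophages the highest was Ndufa1, with 152, 151 and 152 CPM against 126, 127 and 119 CPM, a log2 difference of 0.39 ± 0.04.

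Some complex IV subunits exist as paired isoforms, of which the second is known from muscle, testis or hypoxic tissue. The ubiquitous forms carried nearly all counts. Cox6a2, the heart and skeletal muscle form, had 7.62 CPM at baseline (6.97 to 8.30) and a mean of 7.04 ± 0.832 CPM in infarct (SD, n = 3), where Cox6a1 had 219 CPM and 264, 248 and 244 CPM. The gene lies at chr7:128205435-128206387 on the minus strand. Its counts were uneven among cells. In 85 cells positive for Siglech, a gate set after this gene's distribution had been seen, Cox6a2 had 800 CPM at baseline (exact 95% Poisson interval 682 to 933) and 1298, 1231 and 1015 CPM in infarct. In all other cells it had 5.24, 4.51, 6.29 and 5.35 CPM in the 4 libraries.

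These 85 cells were 0.205% of the 41533 kept cells and held 610 of the 2407 UMIs of Cox6a2 (25.3%). Of the 34 such cells at baseline 58.8% had a Cox6a2 UMI, against 2.81% of the other cells, at median depths of 7064 and 6396 UMIs. The cells also carried Ccr9 (1279 CPM at baseline), Klk1 (756 CPM) and Ly6d (1689 CPM). The B cell genes Cd79a and Ms4a1 had 0 UMIs in them in all 4 libraries. The gate itself required more Siglech than Cd79a and Ms4a1 UMIs together and low C1q genes, so low values of these genes were built in. Cox6a1 in these cells was at 227 CPM at baseline and 290, 306 and 369 CPM in infarct. In B cells, gated by Cd79a and related genes, Cox6a2 had 25.4 CPM at baseline and 58.5, 23.1 and 43.7 CPM in infarct, from 1 to 3 cells per library. As Siglech, Cd79a, Ms4a1 and the C1q genes chose the cells, these values are a description. Within infarcts Cox6a2 was called lower in 5 types, among them non-classical monocytes with 0 UMIs in 273 cells, but the other cells of those comparisons included the Siglech-positive ones.

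Cox6b2, the testis form, was at a low level and lower in infarct. It had 10.6 CPM at baseline (9.81 to 11.4) and 6.22, 6.22 and 6.48 CPM in infarct, and in type 2 dendritic cells, where it was highest, 39.8 CPM against 19.9, 15.9 and 21.4 CPM. In cycling cells it had 27.2 CPM against 7.75, 7.82 and 9.39 CPM, from 20 to 56 UMIs per library. Within infarcts it was higher in dendritic cells than in other cells by 1.71 ± 0.20 on the log2 scale (edgeR adjusted p = 2.97e-06). Its ubiquitous partner Cox6b1 was higher in infarct, at 331 CPM against 454, 470 and 443 CPM. Cox7a1, another muscle form, had 4.17 CPM at baseline and 3.78 CPM or more in each infarct library, where Cox7a2 had 213 CPM and 296, 319 and 286 CPM.

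The remaining alternative forms had few counts. Cox8b, the muscle partner of Cox8a, had 72 UMIs at baseline and 29, 25 and 24 in infarct, or 1.06 CPM (0.833 to 1.34) against 0.328, 0.266 and 0.281 CPM, and cardiomyocyte markers were also higher at baseline. Cox4i2, induced by low oxygen in other tissues, had 62 UMIs at baseline and 67, 84 and 65 in infarct. Ndufa4l2, a hypoxia-inducible relative of Ndufa4, had 44 UMIs at baseline and 127, 130 and 133 in infarct, or 0.651 CPM (0.473 to 0.874) against 1.44, 1.39 and 1.56 CPM. Its level was high in cells gated as fibroblasts, at 72.2 CPM in 9 baseline cells and 110, 137 and 48.0 CPM in infarct. The infarct values come from 37, 8 and 26 cells, so all 4 libraries rest on few UMIs. Fibroblast markers summed to 21.0 CPM at baseline and 325, 70.3 and 87.4 CPM in infarct, with none of the 5 at 0, and their part in the level of Ndufa4l2 over all cells was not tested.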

How the data were processed

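UMI counts per gene and cell were deposited by the authors as filtered matrices made with Cell Ranger on mm10 (3.1.0 per the file headers, 3.0.1 per the labels). The counts were used as deposited. Cells with 500 to 40000 UMIs and over 200 genes and genes found in at least 3 cells were kept, as in the study. Barcodes numbered 10144 to 10804 per library before and 10117 to 10782 after, with 71093963 to 97944428 UMIs in the files. These libraries are separate animals within the infarct group, and n for infarct is 3.

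Cells with at least 1000 UMIs were gated by summed marker UMIs per 10000, with 40 for C1q genes in macrophages, for example. No annotation of cells was used, so shares may differ from the study's clusters, and a gate is a range, with 2795 cells within 20% of the MHC-II limit. The members and all gene lists were chosen with earlier results of these data known, and the gates for Gpnmb-positive C1q-low and Siglech-positive cells were set after values were seen. Scrublet in scanpy 1.11.5 called 2.19% of baseline cells and at most 0.00988% of infarct cells, so it had not worked there, and doublets were kept except in an alternative that removed the top-scoring 8.10% to 8.63%.

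CPM used summed UMIs without mitochondrially encoded genes, except for the mitochondrially encoded list, whose total held all UMIs. Infarct and baseline were compared by the log2 ratio of mean CPM, with exact Poisson 95% intervals for the baseline, which cover counting error only. Within infarcts, summed counts of each type with at least 50 cells per heart were tested against all other cells with edgeR 4.0.16 (R 4.3.3, filterByExpr, TMM, quasi-likelihood, heart as block, Benjamini-Hochberg adjusted p below 0.01 over all genes). The block is given by the design, as both sums come from the same heart, and deviations of the paired sums from their means correlated at 0.048 to 0.719 over 11224 genes. SE is the size of the fitted log2 divided by the root of F. The fitting code was tested on simulated data. Genes named with values were, per comparison, up to 5 highest and 5 lowest called members of at least 20 CPM (only some are printed), plus catalytic members, isoform pairs and assembly factors. Other genes printed were chosen after their values were seen. Alternatives were DESeq2 1.42.0, size factors, filters, gates, thinning to 2000 UMIs, doublets, each heart left out and macrophages as comparator. Gene positions and transcript lengths are from GENCODE on GRCm38 and promoters from RefSeq. No genome or protein sequence was used here. The values of 1 member are not reported here, though counts and sums include it.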

Additional observations from a re-analysis of the deposited data

Results flagged for a closer look

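Among members averaging at least 20 CPM in both types, Cox7a2l alone was higher in infarct in a cell type and lower in another by the rule used for baseline comparisons. The log2 of infarct over baseline was 0.87 in other macrophages, from 287 CPM to 510, 519 and 542 CPM, and -0.32 in classical monocytes, from 484 CPM to 312, 402 and 446 CPM. It drew attention because every infarct library moved up in the first and down in the second. With TMM library sizes, however, Cox7a2l was no longer lower by that rule in classical monocytes. The difference was not tested, since the baseline is a single library. The infarct libraries also differed among themselves in classical monocytes, where infarct 1 was farthest from baseline. Below that level Ndufaf2 also differed in direction, with 19.0 CPM against 28.3, 38.3 and 35.0 CPM in cycling cells and 21.4 CPM against 12.9, 20.1 and 12.8 CPM in type 2 dendritic cells, the latter from 18 to 38 UMIs per library, and this difference was not tested either.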

How the results depend on the processing

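Counts of members called within infarcts depended on the block and on depth. With no replicate block, that is without pairing the 2 sums of a heart, the edgeR totals were 1 in reparative, 0 in MHC-II-high, 5 in other and 0 in interferon-response macrophages, 10 in Gpnmb-positive C1q-low cells, 26 in cycling cells, 20 in non-classical monocytes and 18 in type 2 dendritic cells. The totals of 0 went with 22 and 6 members at an unadjusted p under 0.05, and DESeq2 with the block called 25 and 2. With cells thinned to 2000 UMIs they were, in the same order, 7, 16, 30, 1, 9, 16, 15 and 17, and 9 in granulocytes. Against macrophages alone they were 66 in reparative, 14 in MHC-II-high and 7 in interferon-response macrophages and 6 in granulocytes. All totals in this paragraph join higher and lower calls and stand without a share of all genes. DESeq2 gave 14 in Saa3 Arg1 macrophages and 9 in non-classical monocytes, no filter on low counts gave 14 in Saa3 Arg1 macrophages, and DESeq2 size factors gave 5 in granulocytes. With each infarct left out in turn, totals ranged from 2 to 15 (reparative), 13 to 24 (MHC-II-high), 14 to 47 (other), 2 to 2 (interferon-response), 4 to 10 (Saa3 Arg1), 3 to 40 (Gpnmb-positive C1q-low), 24 to 53 (cycling), 28 to 42 (classical), 13 to 26 (non-classical), 18 to 27 (dendritic) and 1 to 7 (granulocytes). Cycs turned to 0.11 in reparative and 0.01 in MHC-II-high macrophages when macrophages were the comparator.

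In infarct against baseline, a limit of 1.5-fold left fewer members shifted. In all cells 5 of 82 were higher and 1 lower, where 5.62% and 20.4% of all genes were. Other macrophages had 4 and 1 of 83 (6.27% and 22.6%) and dendritic cells 8 and 1 of 84 (11.4% and 17.4%). In these sets the higher members were near the share of all genes. The counts were 13 and 0 of 82 (6.85% and 22.2%) in MHC-II-high macrophages and 19 and 1 of 83 (9.55% and 19.2%) in cycling cells. They were 14 and 1 of 83 (8.06% and 17.9%) in classical and 19 and 0 of 81 (6.33% and 8.87%) in non-classical monocytes. In other macrophages 68 shifted with TMM library sizes and 52 with the mean over cells. The log2 ratio of the sum with TMM library sizes was 0.67 in all cells, 0.74 in MHC-II-high and 0.59 in other macrophages, 0.63 in cycling cells, 0.54 in classical monocytes and 0.45 in dendritic cells. The mean over cells gave 0.47 in all cells and 0.43 in other macrophages. Without ribosomal protein genes in the total it was 0.46, 0.55, 0.38 and 0.45 in all cells, MHC-II-high macrophages, other macrophages and non-classical monocytes. Thinning to 2000 UMIs, added after the data were seen, gave 0.36 in other macrophages and 0.41 in dendritic cells, and turned Ndufaf2 in cycling cells to -0.21. With 1 infarct left out, log2 ratios and members shifted ranged from 0.37 to 0.41 and 51 to 60 in all cells, 0.45 to 0.49 and 59 to 63 in MHC-II-high and 0.28 to 0.31 and 24 to 36 in other macrophages, 0.43 to 0.50 and 65 to 68 in cycling cells, 0.35 to 0.38 and 56 to 61 in classical and 0.38 to 0.41 and 54 to 62 in non-classical monocytes, and 0.33 to 0.37 and 48 to 58 in dendritic cells. Over all alternatives, 241 summed levels and counts kept their side and 64 moved, and of the named genes 1085 values kept their side, 85 moved, 108 lost the call and 3 reversed. The cause was not tested.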
